A study of Mus musculus with 4 samples.

Results

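Bacteroides_H, Phocaeicola_A_858004 and Parabacteroides_B_862066 are 3 of the 316 genera in a table of the bacteria in mouse stool. They hold 16 of its 488 taxon rows: 10 of Bacteroides_H, 3 of Phocaeicola and 3 of Parabacteroides, each summed here by genus. No threshold was set. The genera were chosen by their share of reads at day 4, which was large in some antibiotic-treated mice and small after PBS. Their day 4 levels are therefore given as a description and are not tested. All levels are percent of the 16S rRNA gene reads of a sample.

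The study used wild-type C57BL6/J mice of 8 to 12 weeks kept on standard chow under specific-pathogen-free conditions. Each antibiotic dose was 2.5 mg in 100 µl of phosphate-buffered saline (PBS), given 2 times daily over 3 days with 1 more dose on day 4. Stool was sequenced at day 0 and at day 4 over the V4 region of the 16S rRNA gene. The labels give 30 to 35 PCR cycles and a time of 4 hours after the last dose. PBS mice were given the same volume, and mice were assigned to groups at random, per the labels. Antibiotic samples numbered 73 at day 4, and PBS samples 16. Ampicillin was given by mouth (n = 5), into the peritoneum (n = 2) or into a vein (n = 4). Metronidazole was given by the same routes (n = 6 each), as were neomycin (n = 4, 6 and 4), vancomycin (n = 6, 5 and 6) and a mix of all 4 drugs (n = 4, 3 and 6). PBS alone was given by mouth (n = 5), into the peritoneum (n = 5) or into a vein (n = 6).

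All 3 genera belong to the order Bacteroidales, Gram-negative anaerobes that break down plant and host glycans in the gut. Bacteroides and Phocaeicola are close relatives in the family Bacteroidaceae, and Phocaeicola vulgatus was long known as Bacteroides vulgatus. Parabacteroides belongs to the Tannerellaceae. In the stool of laboratory mice Muribaculaceae are commonly the most abundant family of the order. The drugs differ in their reach. Vancomycin blocks cell wall synthesis and passes the Gram-negative outer membrane poorly, ampicillin is a beta-lactam that many Bacteroides strains can hydrolyse, neomycin is an aminoglycoside whose uptake needs respiration, and metronidazole is activated inside anaerobes.

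Day 4 libraries held 30 to 153407 reads, with a median of 23566, and 4 of them held fewer than 1000. These were intraperitoneal mix replicate 3 (30 reads), intravenous mix replicate 5 (65 reads), intraperitoneal neomycin replicate 4 (70 reads) and an oral mix replicate 2 of run ok122 (556 reads). In libraries of at least 1000 reads the 95% Clopper-Pearson interval of a genus share spanned at most 2.56 percentage points, and a genus at 0 could hold up to 0.261% in the shallowest. These intervals and limits cover counting error only. Day 4 libraries of intravenous ampicillin replicates 3 and 4 agree within sampling noise, as do those of intraperitoneal vancomycin replicates 1 and 5, and each pair was averaged and counted as 1 sample. Intravenous mix replicate 1 came from a mouse whose day 0 sheet gives the intraperitoneal route. A share of reads is not an amount of bacteria: growth of a genus and loss of the others cannot be told apart here.

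In PBS stool the 3 genera were rare. Over 16 PBS samples at day 4, Bacteroides_H held 0.149% to 1.51% of reads (median 0.406%), Phocaeicola 0 to 0.0838% (median 0.0253%) and Parabacteroides 0 to 0.0932% (median 0.0439%). Bacteroides_H was the highest of the 3 in 16 of 16 PBS samples, and none of the 3 led a PBS sample. Among the 15 antibiotic groups, the summed mean was at least 10% in 7 and under 1% in 8. The lowest of those 7 was the oral mix with a summed mean of 14.7%, and the highest of the other 8 was intravenous neomycin with 0.901%. Single mice carried some of these means. Without its highest sample the summed mean was 1.59% ± 2.09 after the oral mix (n = 3), 3.63% ± 5.01 after intraperitoneal vancomycin (n = 4) and 9.40% ± 3.40 after oral neomycin (n = 3), so 3 of the 7 groups then lay under 10%. In the other 4 it was 10.6% to 44.5%. Together the 3 genera held at least 20% of reads in 15 of 73 antibiotic samples and at least 50% in 10.

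**Figure D1:**
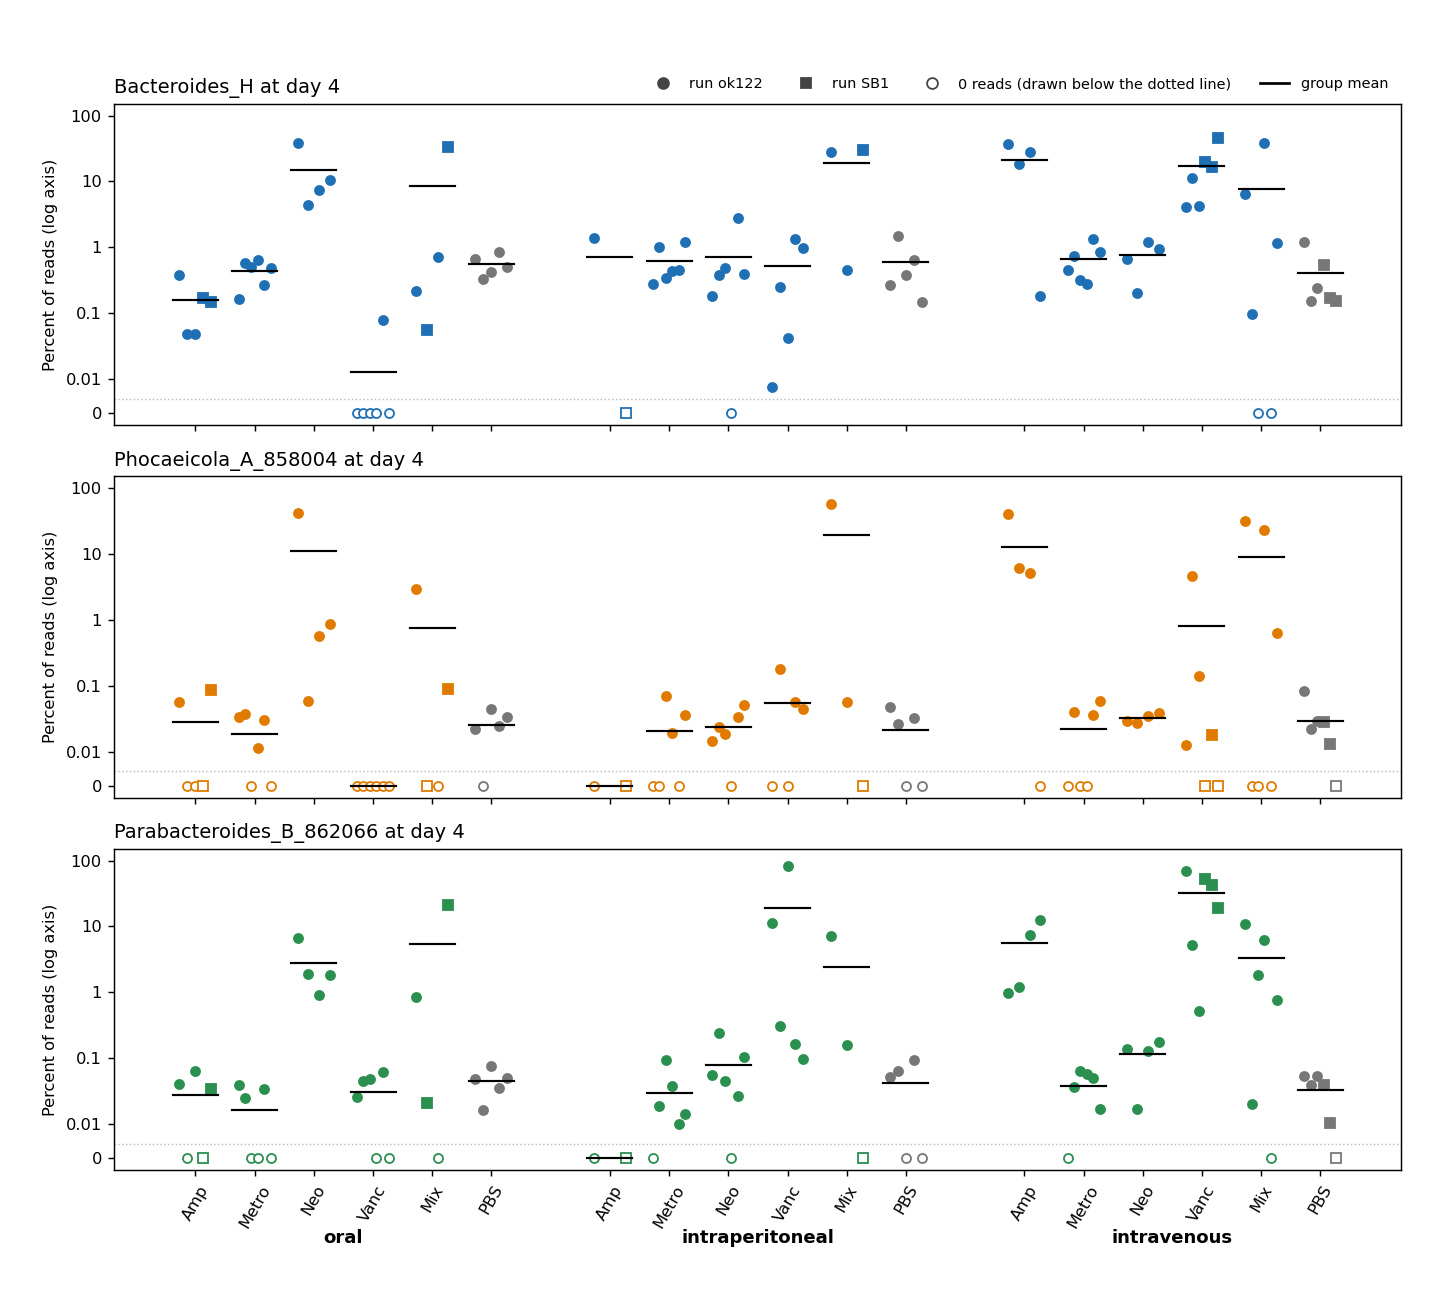
Percent of reads of each genus (log axis) in the 89 day 4 samples, by antibiotic (Amp ampicillin, Metro metronidazole, Neo neomycin, Vanc vancomycin) and route, with PBS in grey at the right of its route; lines are group means and open symbols below the dotted line are samples at 0. The spread within several antibiotic groups covers over 2 powers of 10, while PBS samples stay at or below 1.51%.

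Intravenous vancomycin gave the highest summed mean, 49.4% ± 29.0 (SD, n = 6), against 0.473% ± 0.457 in intravenous PBS (n = 6). Parabacteroides ran between 0.521% and 69.5% with a median of 31.0%, against 0 to 0.0536% with a median of 0.0389% in PBS. Bacteroides_H ran between 4.11% and 45.8% with a median of 13.9%, against 0.152% to 1.21% with a median of 0.208% in PBS. Neither of these genera overlapped with PBS in any of the 6 vancomycin samples. Of the 95 genera tested at day 4, 2.11% were above PBS in this way, and these are the 2 members themselves. The members are counted among the 95 in all such shares. The contrast chose the members, so nothing is read from that share. On the log2(percent + 0.01) scale used for all log2 differences here, the difference was 8.65 (SE 1.18) for Parabacteroides and 5.30 (SE 0.73) for Bacteroides_H. Phocaeicola was at 0 in 2 samples, at 0.140% or less in 3 others and at 4.58% in replicate 2, and 4 of the 6 were within the PBS range. Without replicate 2 its mean was 0.0340% ± 0.0596 (n = 5), against 0.0292% ± 0.0288 in PBS (n = 6). Without replicate 6 the Bacteroides_H mean was 11.2% ± 7.08, in place of 16.98% ± 15.5. The group also spanned both sequencing runs, with PBS samples in each. In run SB1 Bacteroides_H averaged 27.4% ± 16.1, against 0.288% ± 0.219 in PBS, and in run ok122 6.60% ± 4.15, against 0.534% ± 0.584 in PBS (n = 3 each). In run SB1 Parabacteroides averaged 38.1% ± 17.1, against 0.0164% ± 0.020 in PBS (n = 3 each). In run ok122 it averaged 25.1% ± 38.6, against 0.0486% ± 0.00825 in PBS (n = 3 each).

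Parabacteroides was the most abundant genus of the sample in 3 of the 6 intravenous vancomycin mice, with 69.5% in replicate 1, 52.2% in replicate 4 and 42.9% in replicate 5. In replicate 6 Bacteroides_H led with 45.8% and Parabacteroides held 19.1%. Duncaniella, a genus of the Muribaculaceae, led the other 2 mice with 17.9% in replicate 2 and 33.9% in replicate 3. In those 2 mice the 3 genera summed to 21.2% and 4.96%. Escherichia_710834 held 20.8% to 31.0% in the 4 mice led by the 3 genera and 0.579% and 0 in the 2 led by Duncaniella.

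Intraperitoneal vancomycin was followed by a takeover in 1 mouse. Parabacteroides held 83.4% in replicate 3, 11.1% in the average of replicates 1 and 5, 0.304% in replicate 2, 0.165% in replicate 4 and 0.0980% in replicate 6, against 0, 0, 0.0520%, 0.0646% and 0.0932% in PBS. All 5 samples were above every PBS sample, as were 2.11% of the genera tested, although replicate 6 was only just above the highest PBS sample. The log2 difference was 5.36 (SE 2.02), and without replicate 3 the mean was 2.92% ± 5.47 (n = 4). Bacteroides_H held 0.00744%, 0.248%, 0.0413%, 1.33% and 0.98% in replicates 1 and 5, 2, 3, 4 and 6, within or below the PBS range of 0.149% to 1.51%. Phocaeicola was at 0 in 2 of the 5 and at 0.177% or less in the rest. UBA7173, another genus of the Muribaculaceae, led replicates 2, 4 and 6, and Akkermansia, a degrader of intestinal mucus, led replicates 1 and 5 with 41.4%.

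Intravenous ampicillin was followed by a different mixture, with all 3 genera above PBS in 3 of 4 samples. Bacteroides_H held 37.1%, 18.6%, 28.0% and 0.185% in replicates 1, 2, the average of 3 and 4, and 5, against 0.152% to 1.21% in intravenous PBS. Phocaeicola held 39.8%, 6.16%, 5.10% and 0 in the same samples, against 0 to 0.0838% in PBS. Parabacteroides held 0.972%, 1.19%, 7.52% and 12.4%, against 0 to 0.0536% in PBS. Parabacteroides was thus above PBS in 4 of 4 samples, and Bacteroides_H and Phocaeicola in 3 of 4. Of the genera tested, 1.05% were above PBS in every sample, which is Parabacteroides alone. The share above PBS in 3 of 4 samples was not counted. The log2 differences were 6.52 (SE 1.02) for Parabacteroides, 5.89 (SE 2.64) for Phocaeicola and 4.68 (SE 1.85) for Bacteroides_H. Phocaeicola led replicate 1 with Bacteroides_H close behind, and Bacteroides_H led the averaged sample. CAG-485, also of the Muribaculaceae, led replicate 2 with 24.7%. Replicate 5 stood apart: UBA7173 held 57.0% there, and Parabacteroides alone of the 3 was above PBS. Without replicate 1 the Phocaeicola mean was 3.75% ± 3.29 (n = 3), in place of 12.8% ± 18.2 (n = 4), and without replicate 5 the Parabacteroides mean was 3.23% ± 3.72, in place of 5.53% ± 5.51.

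After oral neomycin all 3 genera were above PBS in each of 4 mice. Bacteroides_H held 38.0%, 4.40%, 7.34% and 10.4% in replicates 1 to 4, against 0.336% to 0.844% in oral PBS. Phocaeicola held 42.4%, 0.0586%, 0.563% and 0.851%, against 0 to 0.0448% in PBS. Parabacteroides held 6.59%, 1.87%, 0.894% and 1.81%, against 0.0165% to 0.0761% in PBS. No neomycin sample overlapped with PBS in any of the 3, and 5.26% of the genera tested, these 3 included, were above PBS in every sample. The log2 differences were 4.31 (SE 0.70) for Bacteroides_H, 5.16 (SE 1.98) for Phocaeicola and 5.37 (SE 0.66) for Parabacteroides. The 4 mice differed in which genus was in front. In replicate 1 the 3 genera reached 87.0% of reads with Phocaeicola in front. In replicates 2 to 4 Bacteroides_H was the highest of the 3 and CAG-485 led the sample with 35.5%, 24.6% and 19.99%. Without replicate 1 the Phocaeicola mean was 0.491% ± 0.401 (n = 3) in place of 10.96% ± 20.9 (n = 4), the Bacteroides_H mean 7.38% ± 3.00 in place of 15.04% ± 15.5, and the Parabacteroides mean 1.53% ± 0.548 in place of 2.79% ± 2.57.

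After the mix, mice of the same route ranged between near absence and near dominance. Into the peritoneum, replicate 1 held 27.6% Bacteroides_H, 57.7% Phocaeicola and 7.22% Parabacteroides, 92.5% in all. Replicate 2 held 0.458%, 0.0569% and 0.156% of the 3 in the same order, with CAG-485 in front at 21.3%. Replicate 3 had 30 reads: Bacteroides_H was at 30.0% with an interval of 14.7% to 49.4%, and the other two were at 0 with limits of 10%. PBS samples of this route held at most 1.51% Bacteroides_H, 0.0471% Phocaeicola and 0.0932% Parabacteroides. Each genus was above PBS in 2 of 3 samples. Of the genera tested, 0% were above PBS in all 3, a stricter count, and the share above it in 2 of 3 was not counted. The log2 differences were 4.03 (SE 2.06) for Bacteroides_H, 3.79 (SE 3.83) for Phocaeicola and 2.74 (SE 2.85) for Parabacteroides. Replicate 3 came from run SB1, which holds no intraperitoneal PBS. Without replicate 1 the Phocaeicola mean was 0.0285% (n = 2), against 0.0210% ± 0.0207 in PBS (n = 5), and the Parabacteroides mean 0.0779%, against 0.0420% ± 0.0411 in PBS.

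After the intravenous mix, Bacteroides_H held 0 to 37.9% with a median of 0.632%, against 0.152% to 1.21% in PBS. Phocaeicola held 0 to 31.1% with a median of 0.320%, against 0 to 0.0838% in PBS. Parabacteroides held 0 to 10.9% with a median of 1.29%, against 0 to 0.0536% in PBS. The groups overlapped for each genus. Bacteroides_H was above PBS in 2 of 6 samples and below it in 3, Phocaeicola was above in 3 and Parabacteroides in 4. Of the genera tested, 0% were above PBS in all 6, a stricter count, and shares for fewer samples were not counted. The log2 differences were 0.32 (SE 2.07) for Bacteroides_H, 3.13 (SE 2.33) for Phocaeicola and 3.97 (SE 1.74) for Parabacteroides. Phocaeicola led replicate 1 with 31.1%, and Bacteroides_H led replicate 4 with 37.9%, followed there by Phocaeicola with 22.8%. In replicates 2 and 3 Borkfalkia, of the family Borkfalkiaceae, held 68.7% and 93.1%, and the 3 genera together 0.119% and 1.82%. Duncaniella led replicate 6, where the 3 genera summed to 2.57%. Streptococcus led replicate 5, which had 65 reads and a limit of 4.62% for a genus at 0. Without replicate 4 the Bacteroides_H mean was 1.52% ± 2.74 (n = 5), in place of 7.58% ± 15.04 (n = 6). Without replicate 1 the Phocaeicola mean was 4.68% ± 10.1, in place of 9.09% ± 14.1, and the Parabacteroides mean 1.76% ± 2.58, in place of 3.28% ± 4.38.

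After the oral mix, 1 of these genera led all reads only in replicate 3, with 32.9% Bacteroides_H, 0.0877% Phocaeicola and 21.0% Parabacteroides. Replicate 1 held 0.217%, 2.90% and 0.85% of the 3 in the same order, replicate 2 of run SB1 held 0.0557%, 0 and 0.0209%, and replicate 2 of run ok122 held 0.719%, 0 and 0. Oral PBS held 0.336% to 0.844% Bacteroides_H, so 1 sample was above that range, 1 within it and 2 below it. Phocaeicola and Parabacteroides were each above PBS in 2 of 4 samples. Of the genera tested, 1.05% were above PBS in every sample, a stricter count, and the share above it in 2 of 4 was not counted. The log2 differences were 0.53 (SE 1.95) for Bacteroides_H, 1.25 (SE 1.98) for Phocaeicola and 2.41 (SE 2.51) for Parabacteroides. Replicate 3 and 1 of the libraries numbered 2 came from run SB1, which holds no oral PBS, so run and drug cannot be told apart for them. Burkholderia, a genus often found as a contaminant of low-yield libraries, held 91.9%, 96.0% and 37.8% of replicate 1 and the 2 libraries numbered 2, 0.0903% of replicate 3 and 0.00155% ± 0.00347 of oral PBS (n = 5). Replicate 1 and the 2 libraries numbered 2 are the samples within or below the PBS range of Bacteroides_H. That placing holds for shares of all reads, Burkholderia included, and not for shares of the other reads. In replicate 1 Phocaeicola ranked 2, behind Burkholderia. The 3 genera made up 69.7% of the reads of their phylum, the Bacteroidota, in replicate 1. In the libraries numbered 2 they made up 4.21% (run SB1) and 7.41% (run ok122). The part of Burkholderia in the result was not tested. Without replicate 3 the Bacteroides_H mean was 0.331% ± 0.346 (n = 3), in place of 8.47% ± 16.3 (n = 4), and the Parabacteroides mean 0.290% ± 0.485, in place of 5.47% ± 10.4. Without replicate 1 the Phocaeicola mean was 0.0292% ± 0.0506, in place of 0.747% ± 1.44. With Burkholderia and other reagent, skin and food genera taken out of the total, the Phocaeicola mean of this group was 11.9%, against 0.747% with them in.

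**Figure D2:**
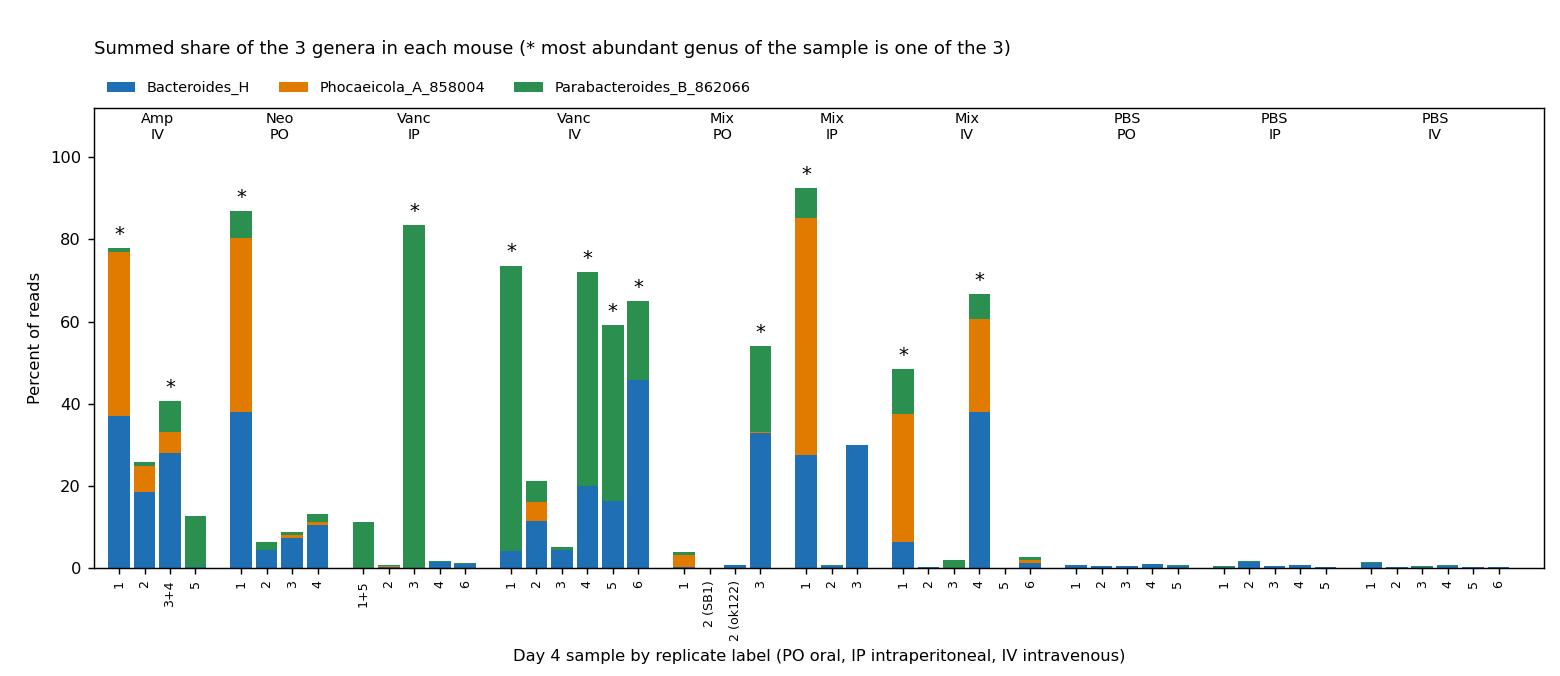
Percent of reads held by Bacteroides_H, Phocaeicola_A_858004 and Parabacteroides_B_862066, stacked, in each of the 32 antibiotic samples of the 7 groups with a summed mean of at least 10% and in the 16 PBS samples at the right. Stars mark the 12 samples whose most abundant genus is one of the 3; the tallest bar is 92.5% (intraperitoneal mix, replicate 1) and no PBS bar exceeds 1.60%.

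Which genus took over varied with the drug and, within a drug, with the mouse. One of the 3 was the most abundant genus in 12 of the 32 samples of these 7 groups: Bacteroides_H in 4, Phocaeicola in 4 and Parabacteroides in 4. The 4 samples led by Parabacteroides were all of vancomycin, 3 intravenous and 1 intraperitoneal. The 4 led by Phocaeicola were 1 each of intravenous ampicillin, oral neomycin, intraperitoneal mix and intravenous mix. The 4 led by Bacteroides_H were 1 each of intravenous ampicillin, intravenous vancomycin, oral mix and intravenous mix. In the remaining 20, CAG-485 led 5, UBA7173 4, Duncaniella 3, Burkholderia 3, Borkfalkia 2, and Akkermansia, Prevotella and Streptococcus 1 each. Thinning libraries to 1000 reads, leaving out shallow libraries, counting each library alone or leaving out the reagent list kept each of the 3 counts within 1.5 times.

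Phocaeicola seldom reached 1% without Bacteroides_H. Of 73 antibiotic samples, 9 held at least 1% Phocaeicola, and 8 of these also held at least 1% Bacteroides_H; the other was oral mix replicate 1. Parabacteroides reached 1% in 18, of which 14 also held 1% Bacteroides_H. Bacteroides_H reached 1% in 26, and in 11 of them it was the only one of the 3 to do so. All 3 were at 1% or more in 7 samples, and none was in 42. Across the 89 day 4 samples, Spearman's rho was 0.58 between Bacteroides_H and Phocaeicola, 0.53 between Phocaeicola and Parabacteroides and 0.45 between Bacteroides_H and Parabacteroides. In the 73 antibiotic samples alone it was 0.59, 0.51 and 0.45. These samples share drugs, routes and a fixed total of reads.

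In the other 8 groups the 3 genera stayed low or were lost. No sample of these 41 was led by any of them, and the highest sum was 2.84% in intraperitoneal neomycin replicate 5. After oral vancomycin, Bacteroides_H was at 0 in 5 of 6 mice and at 0.0778% in replicate 5, against 0.336% to 0.844% in oral PBS, and all 6 were below every PBS sample. Of the genera tested, 41.1% were below PBS in this way, and 4.21% were above PBS in every sample. Phocaeicola was at 0 in 6 of 6 there, and Parabacteroides held 0 to 0.0622%, against 0.0165% to 0.0761% in PBS. Bacteroides_H was thus at opposite ends after the same drug: up to 45.8% after intravenous and at most 0.0778% after oral vancomycin. The difference between these routes was not tested. Escherichia_710834 led 4 of the oral vancomycin samples and Borkfalkia 2.

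After oral ampicillin Bacteroides_H was also low, with 0.384%, 0.0490%, 0.0481%, 0.170% and 0.150% in replicates 1 to 5, and 4 of the 5 were below every oral PBS sample. Of the genera tested, 41.1% were below every PBS sample in at least 4 of the 5. Replicates 4 and 5 came from run SB1, which holds no oral PBS, so run and drug cannot be told apart for them. In run ok122 alone Bacteroides_H averaged 0.1603% ± 0.194 (n = 3), against 0.553% ± 0.200 in PBS (n = 5). Borkfalkia held 85.2%, 55.6% and 56.4% of oral ampicillin replicates 1, 2 and 4. Burkholderia, named above as a frequent contaminant, held 89.0% of replicate 3 and 96.6% of replicate 5. In those 2 samples a low share of all reads does not show a low share of the other reads. The part of Burkholderia in this result was not tested. Intraperitoneal ampicillin was represented by 2 samples with 1.41% and 0 of Bacteroides_H and none of the other two; the sample at 0 came from run SB1, which holds no intraperitoneal PBS. After metronidazole, Bacteroides_H averaged 0.443% ± 0.186 by mouth, 0.623% ± 0.388 into the peritoneum and 0.662% ± 0.405 into a vein (n = 6 each), against 0.553% ± 0.200, 0.592% ± 0.544 and 0.411% ± 0.417 in PBS of these routes. Injected neomycin gave 0.704% ± 1.03 into the peritoneum (n = 6) and 0.754% ± 0.430 into a vein (n = 4), against the same 2 PBS values. The intraperitoneal mean rested on replicate 5, without which it was 0.288% ± 0.194 (n = 5), and 1 of those 5 libraries had 70 reads. Parabacteroides after intravenous neomycin held 0.137%, 0.0166%, 0.126% and 0.178%, above every PBS sample in 3 of 4. In that group 1.05% of the genera tested were above PBS in every sample, a stricter count, and the share for 3 of 4 was not counted.

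Within the genera, the rows of the table showed which species made up the share. Phocaeicola was Phocaeicola vulgatus alone in each of the 9 antibiotic samples with at least 1% of the genus. Parabacteroides was made of 2 named species, Parabacteroides distasonis and Parabacteroides goldsteinii, and 1 row with no species name. In the 7 vancomycin samples with at least 1% of the genus, P. distasonis was its highest row in 7 and held 88.5% to 100% of it, with a median of 99.7%. In the 3 such samples of neomycin it held 33.7% to 51.4% and was the highest row in 1. In the 5 of the mix it held 0 to 37.1% and was the highest row in none. P. goldsteinii was the highest row in 2 of 3 such samples of ampicillin, 2 of 3 of neomycin and 3 of 5 of the mix. The unnamed Parabacteroides row held all 12.4% of intravenous ampicillin replicate 5 and all 1.82% of intravenous mix replicate 3, and 8.54% of the reads in intravenous mix replicate 1. In PBS that row reached at most 0.0195%, and P. distasonis at most 0.0322%.

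Bacteroides_H was less uniform. Its largest row had no species name and was the highest in 5 of 6 samples of the mix and 5 of 6 of neomycin with at least 1% of the genus. Bacteroides intestinalis, a degrader of plant cell wall xylans, was the highest row in 4 of 7 such samples of vancomycin and 1 of 6 of the mix. It held 32.5%, 19.7%, 16.2% and 4.11% of all reads in intravenous vancomycin replicates 6, 4, 5 and 1, 19.5% in intraperitoneal mix replicate 1 and 10.5% in oral mix replicate 3. It was found in 1 of 16 PBS samples, at 0.0442%, and in 0 of the 83 day 0 libraries of at least 1000 reads. Those libraries held 1078160 reads in all, so that a count of 0 allows up to 0.000278% of the pooled reads. The limit for a single mouse is higher: 0.0105%, 0.0454% and 0.00808% at day 0 in intravenous vancomycin replicates 1, 4 and 5. In 183 of 198 libraries the smallest value stood for 2 reads, so a 0 may hide a single read. Absence before treatment is therefore not shown for any single mouse. Bacteroides rodentium was present in 14 of 16 PBS samples and in 48 of 83 day 0 libraries. It was found in 1 of 17 vancomycin samples, at 0.0130%, and reached 18.2% in intravenous ampicillin replicate 1. Of those 17 samples 5, all of oral vancomycin, were at 0 for the whole genus.

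The share of Bacteroides_H reads in its unnamed row was compared with PBS in the 10 groups that had at least 3 samples with 50 or more reads of the genus. Phocaeicola and Parabacteroides had too few PBS samples of that depth. The share was 84.4% ± 9.32 after oral neomycin (n = 4), against 57.1% ± 21.4 in PBS (n = 5; two-sided exact permutation p = 0.0317, adjusted p = 0.179). It was 100% in each of 3 samples after intraperitoneal vancomycin, against 59.1% ± 21.6 in PBS (n = 5; exact p = 0.0357, the smallest that these sizes allow, adjusted p = 0.179). It was 29.7% ± 38.0 after intravenous vancomycin (n = 6), against 67.5% ± 24.4 in PBS (n = 4; exact p = 0.124, adjusted p = 0.413). None of the 10 comparisons passed an adjusted p of 0.05 by the exact test, and 2 had an unadjusted p below it. For the intravenous mix, with 3 samples against 4, no p under 0.0571 was possible. The smallest exact p that any of the 10 allowed was 0.00794 (intraperitoneal neomycin, 5 samples against 5). After adjustment over 10, no single comparison could pass 0.05 by itself.

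**Figure D3:**
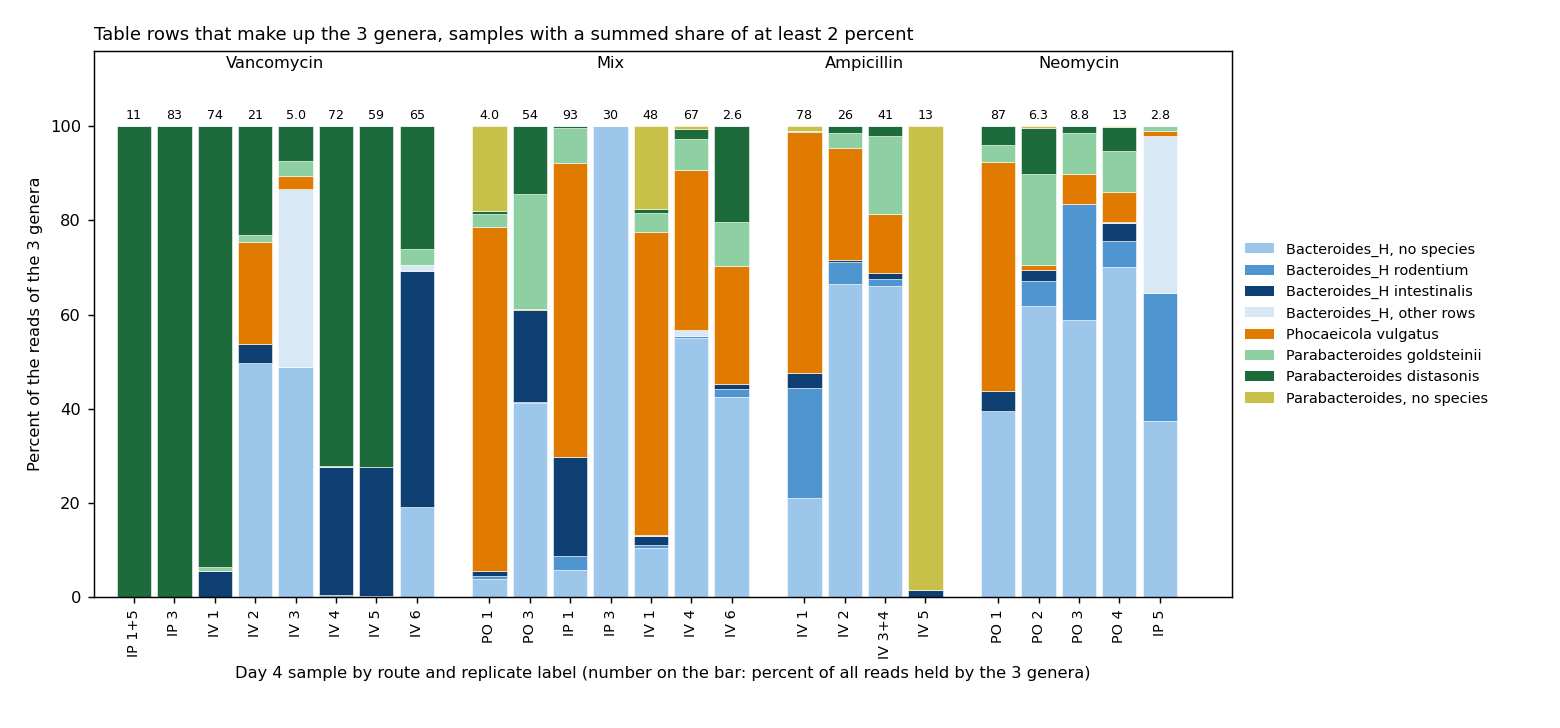
Table rows that make up the 3 genera, as percent of the reads of the 3 genera, in the 24 antibiotic samples where they hold at least 2% of all reads; the number on a bar is that summed percent. P. distasonis (dark green) and Bacteroides intestinalis (dark blue) fill most vancomycin bars, and Phocaeicola vulgatus (orange) is prominent in bars of the mix, ampicillin and neomycin.

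Before treatment the 3 genera were rare in all groups. In the 83 day 0 libraries of at least 1000 reads, Bacteroides_H averaged 0.287% ± 0.354 and was present in 77, Phocaeicola averaged 0.0126% ± 0.0390 and was present in 20, and Parabacteroides averaged 0.0195% ± 0.0497 and was present in 31. None of them led a day 0 library, and the highest sum was 3.19% in oral ampicillin replicate 1. Day 0 values did not choose the genera, so they were tested. Of 45 comparisons of antibiotic with PBS mice of the same route (15 groups and 3 genera), none passed an adjusted p of 0.05 by the two-sided exact permutation test, and 1 had an unadjusted p below it. That was Bacteroides_H in mice of intraperitoneal ampicillin, 0.173% ± 0.0648 (n = 5), against 0.336% ± 0.124 in PBS (n = 6; exact p = 0.0260, adjusted p = 1.0). With 2 libraries of intraperitoneal vancomycin against 6 of PBS no p under 0.0714 was possible, and with 3 of oral ampicillin against 4 of PBS none under 0.0571. The smallest exact p that any of the 45 allowed was 0.00216 (6 mice of intraperitoneal metronidazole against 6 of PBS). After adjustment over 45, no single comparison could pass 0.05 by itself, so alike day 0 levels are not shown.

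Mice that were taken over and had at least 1000 reads at day 0 had shown little of the genus beforehand. A day 0 library of the same mouse could be used for 9 of the 12 led samples, and 5 of these libraries held at least 1000 reads. In 4 of the 5 the genus was already present, at 0.164% Bacteroides_H in intravenous mix replicate 4, 0.0663% Phocaeicola in intravenous ampicillin replicate 1, and 0.0139% and 0.0216% Parabacteroides in intravenous vancomycin replicates 1 and 5. In intravenous vancomycin replicate 4 Parabacteroides was at 0 with a limit of 0.0454%. Shallower day 0 libraries of intraperitoneal mix replicate 1, oral neomycin replicate 1 and intravenous vancomycin replicate 6 were at 0 with limits of 0.348%, 0.453% and 0.737%. The averaged intravenous ampicillin sample, led by Bacteroides_H, was not counted among the 9. At day 0 its replicate 3 held 0 Bacteroides_H (2085 reads) and its replicate 4 held 1.27% (629 reads). The mouse with 83.4% Parabacteroides had 2 reads at day 0, which carry no information on its earlier level. The highest day 0 sum, 3.19%, belonged to a mouse with 0.481% at day 4.

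Within mice, day 4 was set against day 0 on the log2(percent + 0.01) scale, with near-identical day 4 libraries counted once. Parabacteroides was higher at day 4 in 6 of 6 intravenous vancomycin mice (median log2 change 10.66) and 4 of 4 intravenous ampicillin mice (8.23), against 5 of 6 intravenous PBS mice (1.66). It was higher in 4 of 4 oral neomycin mice (7.53), against 5 of 5 oral PBS mice (2.19). It was also higher in 5 of 5 intraperitoneal vancomycin mice (4.97), against 2 of 5 PBS mice of that route (median 0). Bacteroides_H was higher at day 4 in 6 of 6 intravenous vancomycin mice (5.93), against 5 of 6 PBS mice of that route (0.80). It was lower in 6 of 6 oral vancomycin mice (median −4.24), against 1 of 5 oral PBS mice, which had a median of 0.99. Phocaeicola was higher at day 4 in 4 of 4 oral neomycin mice (6.13), against 3 of 5 oral PBS mice (1.68), and at 0 on both days in 6 of 6 oral vancomycin mice. Day 0 libraries were shallower than day 4 libraries (median 7289 reads), so a genus at 0 on day 0 has a higher limit there. Counting only mice whose day 4 level was above the day 0 level, or above its limit where day 0 was at 0, Parabacteroides was higher in 2 of 5 intraperitoneal vancomycin mice, against 2 of 5 PBS mice. By this count it was higher in 6 of 6 mice of intravenous vancomycin and 4 of 4 of intravenous ampicillin, against 3 of 6 of PBS, and in 4 of 4 of oral neomycin, against 1 of 5 of PBS. Bacteroides_H was then higher in 6 of 6 mice of intravenous vancomycin, against 4 of 6 of PBS, and lower in 5 of 6 of oral vancomycin, against 1 of 5 of PBS. Phocaeicola was then higher in 4 of 4 mice of oral neomycin, against 0 of 5 of PBS.

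**Figure D4:**
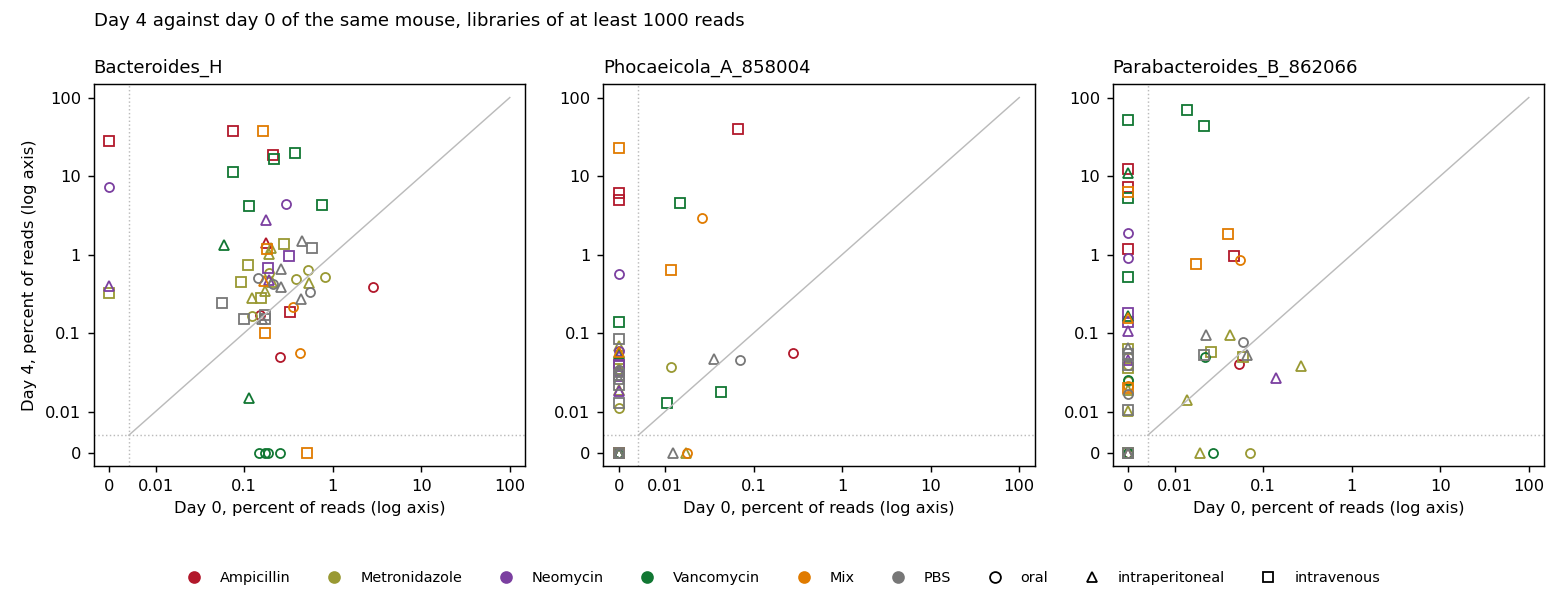
Day 4 against day 0 percent of reads (both log axes, with samples at 0 drawn outside the dotted lines) for each genus in mice with at least 1000 reads on both days; colour is the antibiotic, shape the route, and the line marks equal levels. Points far above the line are mostly vancomycin, ampicillin, neomycin and mix, and the highest Bacteroides_H level at day 0 (2.86%, oral ampicillin) lies below the line.

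Other genera of the Bacteroidales were lower or did not pass the test in these 7 groups. Of 22 such genera, 14 were present in enough samples to be tested with limma, in a single fit of the 89 day 4 samples with Benjamini-Hochberg adjustment over 95 genera. None was higher by limma at an adjusted p of 0.05 in any of the 7 comparisons, and none had an unadjusted p below 0.05 in that direction. The share of all 95 genera that were higher was 4.21% after intravenous vancomycin, 3.16% after intraperitoneal vancomycin, 5.26% after intravenous ampicillin, 6.32% after oral neomycin, and 5.26%, 0% and 1.05% after the mix by vein, into the peritoneum and by mouth. The number lower was 10 of 14 after intravenous vancomycin, where 37.9% of all genera tested were lower, and 4 of 14 after intraperitoneal vancomycin, where 22.1% were. It was 8 of 14 after intravenous ampicillin (36.8% of all genera) and 1 of 14 after oral neomycin (16.8%). After the mix it was 10 of 14 by vein (37.9%), 9 of 14 into the peritoneum (29.5%) and 12 of 14 by mouth (35.8%). The median log2 difference of the 14 was −3.52 after intravenous vancomycin, against −1.14 over all genera tested, and −1.61 after oral neomycin, against −1.02. Single libraries moved several of these counts. After the intraperitoneal mix 0 of 14 were lower by limma without replicate 3, the library of 30 reads (8 had an unadjusted p below 0.05), and 2 without replicate 1. For the oral mix the count was 5 without replicate 1 and 6 without replicate 2 of run SB1, and for intravenous ampicillin it was 5 without replicate 1. For intraperitoneal vancomycin it was 2 without replicates 1 and 5 and 2 without replicate 3, and for oral neomycin 3 without replicate 3 and 2 without replicate 4. On a centred log scale, which takes out the mean over all genera, the counts after the oral mix, intraperitoneal vancomycin and intravenous ampicillin were 3, 1 and 4.

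The Muribaculaceae ferment fibre and mucus glycans in the mouse gut, and 7 of their 8 tested genera were lower by limma after intravenous vancomycin, where 37.9% of all genera tested were lower. The number was 2 after intraperitoneal vancomycin (22.1% of all genera), 3 after intravenous ampicillin (36.8%) and 0 after oral neomycin by limma (16.8%), where 2 had an unadjusted p below 0.05. After the mix it was 7 of 8 by vein (37.9%), 6 of 8 into the peritoneum (29.5%) and 7 of 8 by mouth (35.8%). Paramuribaculum, lower in 5 of the 7 comparisons, averaged 0.00671% ± 0.0104 after intravenous vancomycin, against 6.58% ± 3.28 in PBS (n = 6 each; log2 difference −8.65, SE 1.11, adjusted p = 1.19e-09 by limma). Muribaculum averaged 0.538% ± 1.06 there, against 7.62% ± 2.31 in PBS (log2 −6.94). After intravenous ampicillin UBA3263 averaged 0.0864% ± 0.145 (n = 4), against 2.49% ± 0.898 in PBS (n = 6; log2 −5.84, SE 1.31). UBA7173 passed the test in none of the 7 comparisons, and averaged 24.9% ± 22.4 after intravenous ampicillin (n = 4), against 7.08% ± 3.15 in PBS (n = 6). Unclassified Rikenellaceae were lower in 7 of the 7, Odoribacter_865974 in 5 and Alistipes_A_871400 in 4. Prevotella, the 1 other Bacteroidaceae genus tested, was lower in 4 of 7, and after intravenous vancomycin averaged 1.69% ± 3.14, against 15.8% ± 17.2 in PBS (n = 6 each; log2 −4.32). The 1 other Tannerellaceae genus was too rare to test.

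Escherichia_710834, the 1 tested genus of the Enterobacteriaceae, was higher in 2 of the 7 comparisons. It averaged 16.3% ± 12.9 after intravenous vancomycin, against 0.00698% ± 0.0171 in PBS (n = 6 each; log2 8.07, SE 1.49, adjusted p = 1.25e-05 by limma), and 4.82% ± 5.25 after intravenous ampicillin (n = 4; log2 6.32, SE 1.66, adjusted p = 0.00128 by limma). It was above every PBS sample in 5 of 6 and 3 of 4 mice. The 3 intravenous vancomycin mice led by Parabacteroides held 20.8%, 22.0% and 23.4% Escherichia, and replicate 6, led by Bacteroides_H, held 31.0%. The intraperitoneal vancomycin mouse with 83.4% Parabacteroides held 0.0699% Escherichia.

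**Figure D5:**
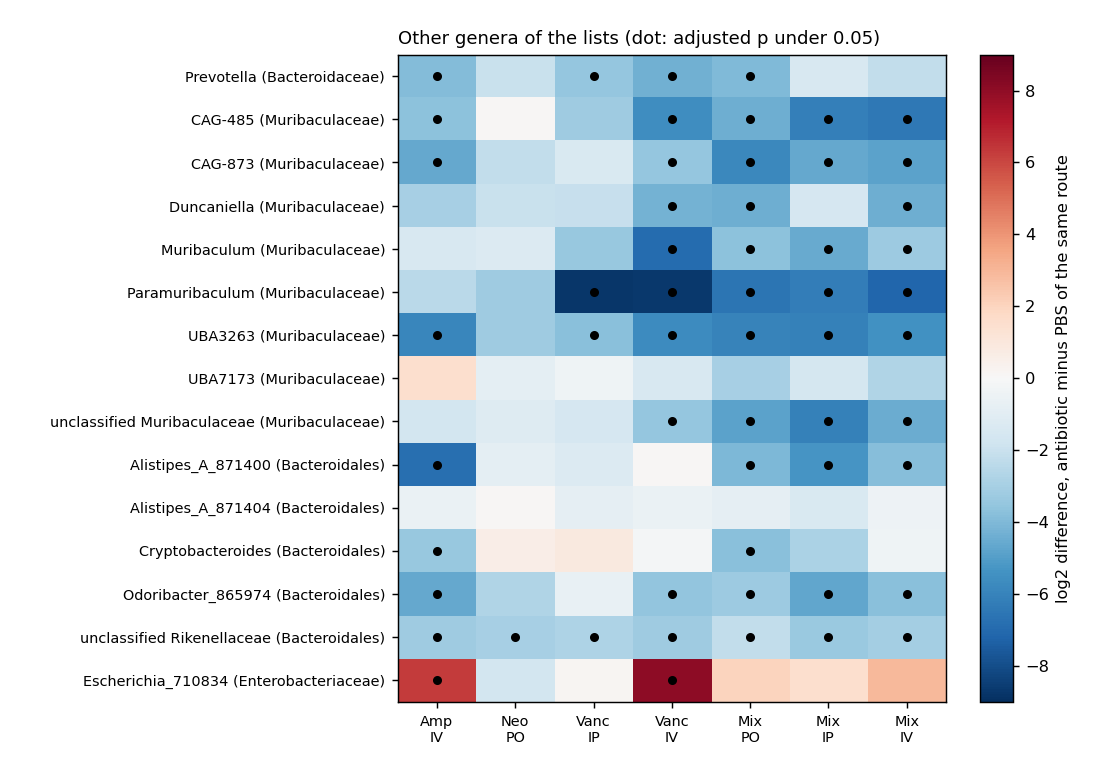
Log2 difference, antibiotic minus PBS of the same route, of the 14 tested Bacteroidales genera outside the 3 and of Escherichia_710834 in the 7 comparisons; blue is lower with antibiotic, red higher, and dots mark an adjusted p under 0.05 by limma. Dots on blue fill most cells of Paramuribaculum and UBA3263, and the 2 dots on red are Escherichia after intravenous ampicillin and intravenous vancomycin.

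Over the 89 day 4 samples, the genera most like Bacteroides_H by Spearman's rho were Phocaeicola (0.58), Parabacteroides (0.45) and Mailhella (0.37), a relative of Desulfovibrio. The least like were Desulfovibrio_R_446353 (−0.34) and Burkholderia (−0.28). Phocaeicola was most like Bacteroides_H, Parabacteroides (0.53) and Muribaculum (0.35), and least like Desulfovibrio_R_446353 (−0.26) and Burkholderia (−0.20). Parabacteroides was most like Phocaeicola, Parasutterella (0.46) and Bacteroides_H, and least like COE1 (−0.43) and Velocimicrobium (−0.37), both of the Lachnospiraceae.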

How the data were processed

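The authors deposited 1 composition table of signal values, in which each library is scaled to a total of 100000, with 1 row per taxon, and empty cells (11.6%) read here as 0. Taxonomy names are per the file headers. How reads were processed and classified is not given in the sources used here. Samples in the table are mice, matched by the sample names of 2 barcode sheets, one for each run (ok122 with 186 libraries, SB1 with 12); the 4 GEO records are files of these runs. Library depth was recovered from the smallest step of each library's values, and no count model was used. Libraries that differed by less than sampling noise (chi-square per degree of freedom 1.29 and 1.06, p = 0.153 and p = 0.363; 341 pairs compared) were averaged. Day 0 libraries with fewer than 1000 reads (24 of 107) were left out of day 0 tests.

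Rows were summed by genus. Presence in 20% of day 4 samples was required (95 genera), and these were tested with limma 3.58.1 (R 4.3.3) on log2(percent + 0.01), which understates changes of rare genera, with all groups in 1 fit, no blocking and Benjamini-Hochberg adjustment. Day 0 levels and row shares were compared by two-sided exact permutation tests (scipy 1.17.1, python 3.11.15, numpy 2.4.6, pandas 2.3.3). The limma step was tested on simulated data. The 3 genera and the lists of other genera were chosen with earlier results of these data known. Genera outside the 3 are named where they are among the 3 most alike or 2 least alike of a member, among the 3 of a list that passed the test with the largest change in a direction, the highest other genus of a group, or the leader of a sample. The sheets do not say how cages or litters were shared, so p-values measure the spread between these samples. Same-numbered samples did not vary together (31 pairs, correlations −0.28 to 0.31, over 0.1 in 9), so replicate numbers were not taken to pair mice. Alternatives covered depth, pseudocount, filter, scaling, run, samples in the fit, day 0 subtraction, a replicate block and single libraries left out. Sequences are not used here.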

Additional observations from a re-analysis of the deposited data

Results flagged for a closer look

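In 12 of 47 groups of 4 to 10 samples, the lowest or highest sample lay far from the nearest other by Dixon's test. The test serves here only to flag samples. Its rate of 1 in 20 holds for normal values, and these are skewed shares with many at 0. The day 4 levels also chose the genera, so no excess over chance is read from the 12. In each of the 12 the outlying sample was the highest. Phocaeicola stood out at 39.8% in intravenous ampicillin replicate 1 (nearest other 6.16%), 42.4% in oral neomycin replicate 1 (nearest 0.851%), 4.58% in intravenous vancomycin replicate 2 (nearest 0.140%) and 2.90% in oral mix replicate 1 (nearest 0.0877%). Bacteroides_H stood out at 37.9% in intravenous mix replicate 4 (nearest 6.35%), 32.9% in oral mix replicate 3 (nearest 0.719%), 2.78% in intraperitoneal neomycin replicate 5 (nearest 0.478%) and 0.0778% in oral vancomycin replicate 5, where the other 5 were at 0. Parabacteroides stood out at 83.4% in intraperitoneal vancomycin replicate 3 (nearest 11.1%) and 21.0% in oral mix replicate 3 (nearest 0.85%). Among controls, intravenous PBS replicate 1 stood out with 1.21% Bacteroides_H (nearest 0.541%) and 0.0838% Phocaeicola (nearest 0.0293%).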

How the results depend on the processing

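Of 648 recomputed day 4 levels and log2 differences of the 3 genera, 644 stayed within 1 SD of the reported value, but that SD is wide in these groups and covers moves of over 1.5 times when single libraries were left out. Of 423 recomputed log2 differences 13 changed sign: 6 of 22 of Bacteroides_H after the intravenous mix, 3 of 19 after the oral mix and 1 of 18 after the intraperitoneal mix, and for Phocaeicola 2 of 23 after intravenous vancomycin and 1 of 19 after the oral mix. The 4 beyond 1 SD were the Bacteroides_H log2 difference after the intraperitoneal mix with libraries thinned to 1000 reads (−0.00683, with 2 samples left), the Phocaeicola mean after the oral mix without reagent, skin and food genera (11.9%), the Parabacteroides log2 difference after oral neomycin with a pseudocount of 0.1 (3.96) and the Bacteroides_H log2 difference after intravenous vancomycin on the centred log scale (6.69). Centring took out a mean over all genera that was lower than PBS by −0.85 after oral neomycin, −1.65, −1.61 and −1.44 after the oral, intraperitoneal and intravenous mix, −0.97 and −1.39 after intraperitoneal and intravenous vancomycin, and −1.67 after intravenous ampicillin. With at least 1000 reads on both days, the median log2 change of Bacteroides_H within mice was 0.93 after the intravenous mix (4 mice), in place of −0.75 (5 mice). It was 0.98 after intraperitoneal vancomycin (2 mice), in place of 4.26 (5 mice). After the intraperitoneal mix it was 1.40 (1 mouse), in place of 5.55 (3 mice).

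The numbers of other Bacteroidales that were lower by limma moved more, and beyond fewer samples the cause was not tested. For oral neomycin (1 reported) the count was 2 with presence in 50% of samples, 3 with a pseudocount of 0.1, 3 with only the groups compared, 3 with libraries of at least 1000 reads, 0 with thinned libraries (3 at an unadjusted p below 0.05), and 1 to 3 with single libraries left out. For the oral mix (12) it was 3 on the centred log scale and 5 to 12 with single libraries left out. For intraperitoneal vancomycin (4) it was 2 with a pseudocount of 0.001, 1 on the centred log scale, 1 with only the groups compared, 1 as day 4 minus day 0, and 2 to 6 with single libraries left out. For the intraperitoneal mix (9) it was 1 with only the groups compared, 0 in run ok122 alone (8 at an unadjusted p below 0.05), 4 as day 4 minus day 0, 1 with thinned libraries, 5 with libraries of at least 1000 reads, and 0 to 10 with single libraries left out. For intravenous ampicillin (8) it was 4 on the centred log scale, 4 as day 4 minus day 0, and 5 to 8 with single libraries left out. For intravenous vancomycin (10) it was 2 in run ok122 alone, and for the intravenous mix (10) 6 with thinned libraries. With the replicate block the counts were 1, 12, 5, 9, 8, 10 and 10 for oral neomycin, oral mix, intraperitoneal vancomycin, intraperitoneal mix, intravenous ampicillin, intravenous vancomycin and intravenous mix, and the block moved none by over 1.5 times. Genera that were higher numbered 2 for the oral mix without a filter and 1 for intravenous ampicillin on the centred log scale. Row shares at 200 or more reads of a genus gave no comparison. The intravenous mix mouse with differing routes was also tried in the intraperitoneal group, an alternative chosen after seeing the data, where the Phocaeicola mean was 22.2%. Depth limits the 4 shallow day 4 libraries and the day 0 levels of Phocaeicola and Parabacteroides most.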

Other observations

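Some rare rows of Bacteroides_H were found in few day 4 samples. Bacteroides stercoris, at 0.885% of reads, appeared only in intraperitoneal ampicillin replicate 1 of the 89 day 4 samples, where it was 62.8% of the genus. Bacteroides acidifaciens, first isolated from a mouse caecum, was found in 10 day 4 samples and reached 1.88% in intravenous vancomycin replicate 3, 1 of the 2 mice of that group led by Duncaniella. In that mouse it was 43.7% of the genus, and Bacteroides intestinalis was not found. Bacteroides cellulosilyticus was found in 7 day 4 samples, at up to 0.0824%: 3 of PBS (up to 0.0234%), 2 of neomycin and 2 of the mix. It was found in 0 of 83 day 0 libraries. That allows up to 0.000278% of their pooled reads, and more in any single mouse.

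In the 12 samples led by one of the 3 genera, these genera made up 46.7% to 99.5% of the reads of their phylum, the Bacteroidota, with a median of 87.9%. The share was lowest in the average of intravenous ampicillin replicates 3 and 4 (46.7%), oral mix replicate 3 (62.3%) and intravenous mix replicate 1 (69.0%). It was 95.8% in intravenous vancomycin replicate 6, 94.8% in replicate 4 and 94.5% in replicate 1, with all Bacteroidota at 67.7%, 76.1% and 77.9% of reads. In replicate 3, led by Duncaniella, Bacteroidota held 90.5% of reads and the 3 genera were 5.49% of them.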
